A study of Mus musculus with 6 samples.

Results

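Semaphorins, plexins and neuropilins form 1 signalling system of guidance ligands and their receptors, and their genes were read here in cortical bone of aged mice after a high-fat diet. The genes were chosen by symbol: classes 3 to 7 of the semaphorins (Sema3 to Sema7), the plexins (Plxn) and both neuropilins (Nrp1 and Nrp2). The family had been picked with earlier results of the diet comparison known, so the values below are a description and not a test of the family. The gene table held 31 of them among 32000 genes, 20 ligand genes, 9 plexin genes and 2 neuropilin genes, and all 31 were among the 19831 genes with enough counts to be tested. The tested libraries came from male C57BL/6J mice aged 18 months that had been fed HFD for 12 months (libraries HFD 2, HFD 3 and HFD 4). They were set against mice of the same strain, sex and age on the CD, which the labels call a chewing diet, for the same 12 months (CD 1, CD 2 and CD 4). The labels and the study's discussion give cortical bone as the tissue, while its text elsewhere names bone particles and its methods describe harvested marrow cells, so cortical bone is used here as the labels give it. Polyadenylated mRNA was sequenced, and each group had 3 libraries. No label states that the libraries come from separate animals, so p-values measure only the spread between these libraries, which may be technical.

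Semaphorins are secreted (class 3) or membrane-bound (classes 4 to 7) proteins best known for repelling growing axons. Plexins are their main receptors, whose cytosolic part acts on small GTPases and so on the actin skeleton, and neuropilins bind class 3 semaphorins together with A-type plexins and also bind vascular endothelial growth factor. In bone, Sema3a acting through Nrp1 is known to protect bone mass, Sema4d made by osteoclasts restrains osteoblasts through Plxnb1, and Sema6d acts on osteoclast precursors through Plxna1 with Trem2.

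Each library held 54.5 to 61.6 M counts, and its effective size was set with TMM, edgeR's scaling that removes shifts shared by most genes, whose factor was smallest in CD 1 (0.640). Levels are given as TMM-scaled CPM (a gene's count divided by the effective library size in M) where libraries are compared, and as FPKM, the values per transcript length and library size that the study deposited, where genes are compared. The fold change is log2 HFD minus CD from edgeR with its standard error (SE), and 2 groups are called apart where no HFD library overlaps a CD library. The libraries differed in the RNA of cell type markers. The summed CPM of 15 osteoblast markers was 1576 to 7708 under HFD and 6700 to 75625 under CD, and all 15 had lower means under HFD. Alpl, the alkaline phosphatase of osteoblasts, was present in every library (23.3 to 69.8 CPM under HFD, 107 to 362 CPM under CD), and no marker of any list was at 0 in all libraries. CD 4 had the highest sums of the osteoblast, osteoclast, fibroblast matrix, endothelial and nerve lists. Skeletal muscle markers summed to 7745 to 40809 CPM under HFD and to 19978 to 112523 CPM under CD. The intestinal marker list summed to 162 to 240 CPM under HFD but to 11.7 and 11.4 CPM in CD 1 and CD 2 against 182 CPM in CD 4. In bulk RNA, fewer cells of a type and less RNA per cell cannot be told apart.

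The DNA around the RefSeq start is shown for 4 genes on which the description turns: Sema7a and Nrp2, the ligand and the receptor gene of highest mean FPKM over the 6 libraries, Plxna2, an A-type plexin whose groups were apart, and Sema4a, an abundant ligand gene whose mean was higher under HFD. Each window runs from 250 bases before to 50 bases after the gene start (RefSeq, GRCm38.p6), 5′ to 3′ on the gene's strand, and capitals mark the GC box GGGCGG or its reverse complement CCGCCC, the letters bound by Sp1-type factors. The windows lie at chr9:57939862-57940161 on the + strand for Sema7a, chr1:62703067-62703366 on the + strand for Nrp2, chr1:194619579-194619878 on the + strand for Plxna2 and chr3:88461133-88461432 on the - strand for Sema4a.
Sema7a: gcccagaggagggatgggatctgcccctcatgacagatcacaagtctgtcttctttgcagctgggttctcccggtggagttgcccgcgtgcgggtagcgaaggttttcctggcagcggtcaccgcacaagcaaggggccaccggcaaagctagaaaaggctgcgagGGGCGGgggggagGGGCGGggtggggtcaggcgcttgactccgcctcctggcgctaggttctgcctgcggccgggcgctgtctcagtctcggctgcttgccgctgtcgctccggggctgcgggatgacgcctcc
Nrp2: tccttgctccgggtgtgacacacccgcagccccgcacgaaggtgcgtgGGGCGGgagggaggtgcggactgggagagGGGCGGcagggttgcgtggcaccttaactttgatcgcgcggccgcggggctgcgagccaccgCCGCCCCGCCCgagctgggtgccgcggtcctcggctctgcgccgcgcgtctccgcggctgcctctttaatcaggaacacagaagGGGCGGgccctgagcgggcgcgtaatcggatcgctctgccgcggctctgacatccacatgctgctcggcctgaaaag
Plxna2: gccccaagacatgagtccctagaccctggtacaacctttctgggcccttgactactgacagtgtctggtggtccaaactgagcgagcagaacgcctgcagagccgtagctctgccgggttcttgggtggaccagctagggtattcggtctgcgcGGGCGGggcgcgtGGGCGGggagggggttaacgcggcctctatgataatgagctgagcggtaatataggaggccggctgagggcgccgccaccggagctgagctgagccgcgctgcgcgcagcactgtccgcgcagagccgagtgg
Sema4a: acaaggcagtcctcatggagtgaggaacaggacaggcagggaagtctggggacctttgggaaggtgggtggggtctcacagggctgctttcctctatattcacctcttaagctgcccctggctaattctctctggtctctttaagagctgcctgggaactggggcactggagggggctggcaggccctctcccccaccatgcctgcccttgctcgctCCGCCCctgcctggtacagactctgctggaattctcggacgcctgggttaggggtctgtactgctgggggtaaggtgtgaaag
The GC box occurred 2 times in the Sema7a window, 5 times in that of Nrp2, 2 times in that of Plxna2 and 1 time in that of Sema4a. The RefSeq start lay 271370 bases from the 5′ end in the gene table for Sema3a, 36990 bases for Sema4d and 1611 bases for Plxna2, so these windows may not hold the start used in bone. RefSeq windows were matched for 26 of the 31 genes. Each of these genes was taken with 1 start, the nearest to its 5′ end in the gene table. The 32851 promoter windows of all genes instead include several starts for some genes, so the shares are not per gene on both sides. Of the 26 windows, 20 (76.9%) held a GC box on either strand, against 35.7% of all 32851 promoter windows. The windows were GC rich, with a median of 65.0% G and C (41.3 to 75.7%) against 52.7% over all windows, and the share with a GC box was not compared at equal GC content. TATAAA was found in 0 of the 26 windows (13.6% of all windows), CCAAT in 4 of 26 or 15.4% (37.4% of all), and TGTGGT, the core letters bound by RUNX factors such as the osteoblast regulator Runx2, in 3 of 26 or 11.5%, those of Sema3a, Plxna3 and Plxnb3 (16.8% of all). TGANTCA, the AP-1 letters, was found in 1 window, that of Sema4c (7.81% of all), and GAGGAAGT, a core of PU.1 sites, in 0 (3.2% of all). All 6 motifs were searched on both strands, and such letters are a description of the window and not evidence of binding.

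The genes differed widely in level. Sema7a led the ligand genes with a mean of 19.5 FPKM over the 6 libraries, followed by Sema4a with 10.3 FPKM, Sema4d with 8.86 FPKM and Sema3g with 5.47 FPKM. Among the receptor genes, Nrp2 stood at 12.4 FPKM, Plxnd1 at 11.3 FPKM, Plxnb2 at 6.88 FPKM and Plxnc1 at 3.03 FPKM. The spread over libraries was larger than most of these steps: Sema7a ran from 7.41 to 49.3 FPKM and Nrp2 from 3.13 to 41.5 FPKM, so that the leading genes are not ordered beyond their spread. The order also differed by diet. Sema7a averaged 9.84 FPKM under HFD, below Sema4a at 12.6 FPKM, and 29.1 FPKM under CD. Nrp2 averaged 4.35 FPKM under HFD, below Plxnd1 at 8.44 and Plxnb2 at 6.28 FPKM, and 20.5 FPKM under CD, where CD 4 held 41.5 FPKM. Sema5b and Sema3e were the lowest, with at most 0.94 and 1.35 CPM in any library, and the lowest raw count of any of the 31 genes in a library was 12, in Sema5b.

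**Figure D1:**
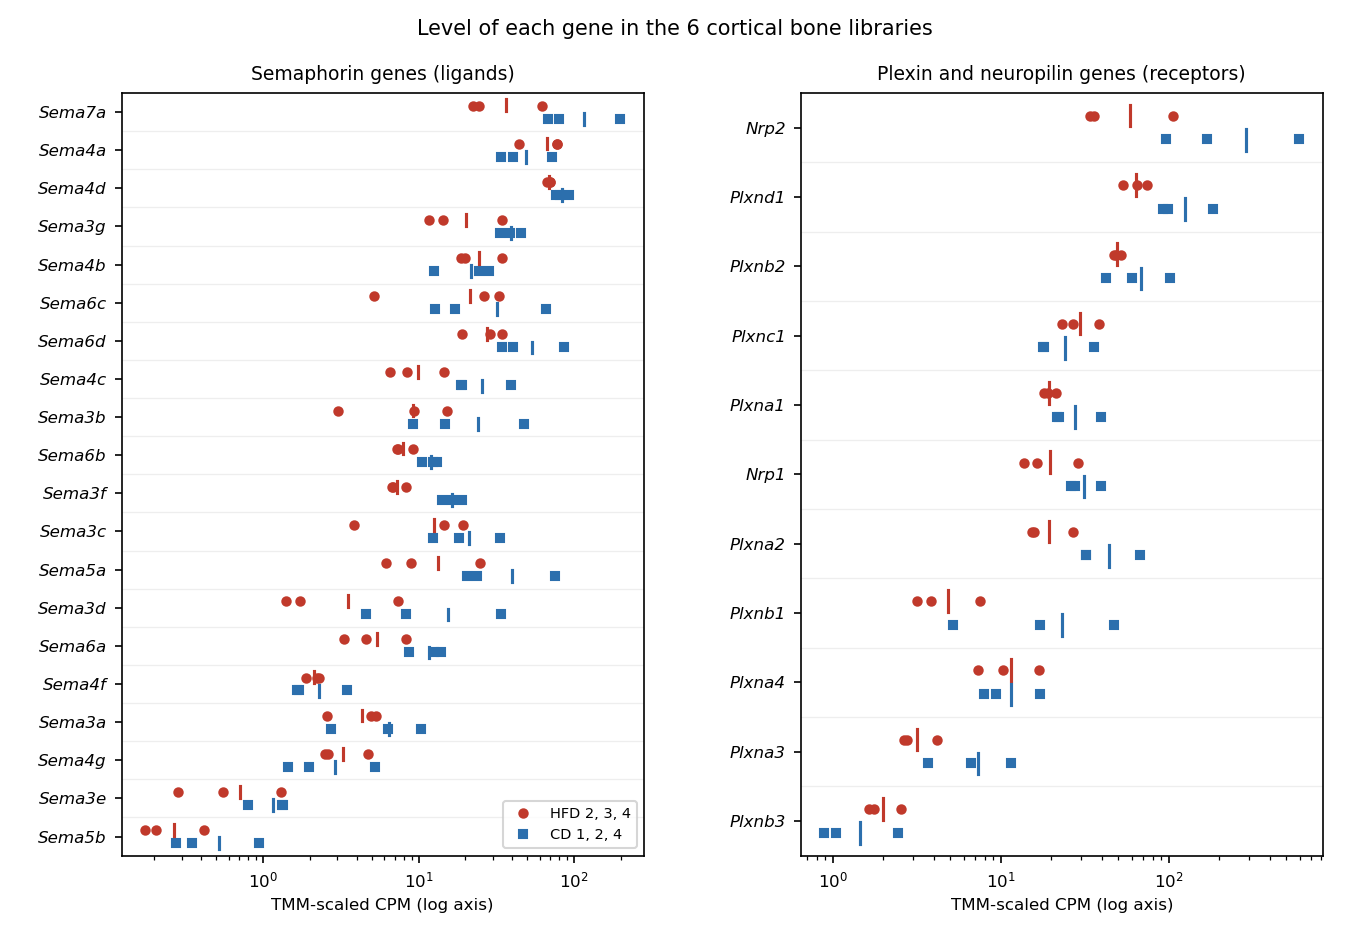
TMM-scaled CPM of each semaphorin gene (left panel) and each plexin or neuropilin gene (right panel) on a log axis, ordered from top to bottom by mean FPKM. Circles are the 3 HFD libraries, squares the 3 CD libraries and vertical bars the group means. The HFD circles of Sema7a end at 62.1 CPM and its CD squares begin at 68.3 CPM, while both groups of Sema4a and Plxnc1 overlap.

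Most of the family stood lower in HFD bone, but no gene of it passed the test over all genes. The mean was lower under HFD for 25 of the 31 genes (80.6%) and higher for 6, where 52.5% of all tested genes had a lower mean. The median log2 fold change was -0.76 over the 31 genes, -0.86 over the 20 ligand genes and -0.67 over the 11 receptor genes, beside -0.03 over all 19831 genes. By edgeR's quasi-likelihood test with Benjamini-Hochberg adjustment 0 of the 31 genes were called (adjusted p from 0.466 to 0.999), as were 0% of all genes. At an unadjusted edgeR p under 0.05, 11 genes were lower and 0 higher, beside 7.2% of all genes lower and 2.46% higher. The groups were apart with HFD lower for 10 genes, 7 ligand and 3 receptor genes, and with HFD higher for 0, beside 10.2% and 4.97% of all tested genes. On other scales fewer were apart with HFD lower: 3 with library totals alone (4.26% of all tested genes) and 2 on FPKM (6.45% of the 31 genes, beside 4.17% of all tested genes). With 1 library left out, where groups overlap less easily, the number was 19 without HFD 4, 15 without CD 1 and 8 without CD 4, beside 18.5%, 15.8% and 10% of all tested genes. The medians were -0.64 for ligand genes and -0.39 for receptor genes without CD 4 and -1.25 and -1.05 without HFD 4. The family was picked with this contrast in view, so nothing is read from these counts. DESeq2, run as an alternative, called 1 of the 31 genes, Sema3f, beside 1.11% of all genes called lower. An exact permutation test of 3 against 3 libraries cannot give a p under 0.1.

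**Figure D2:**
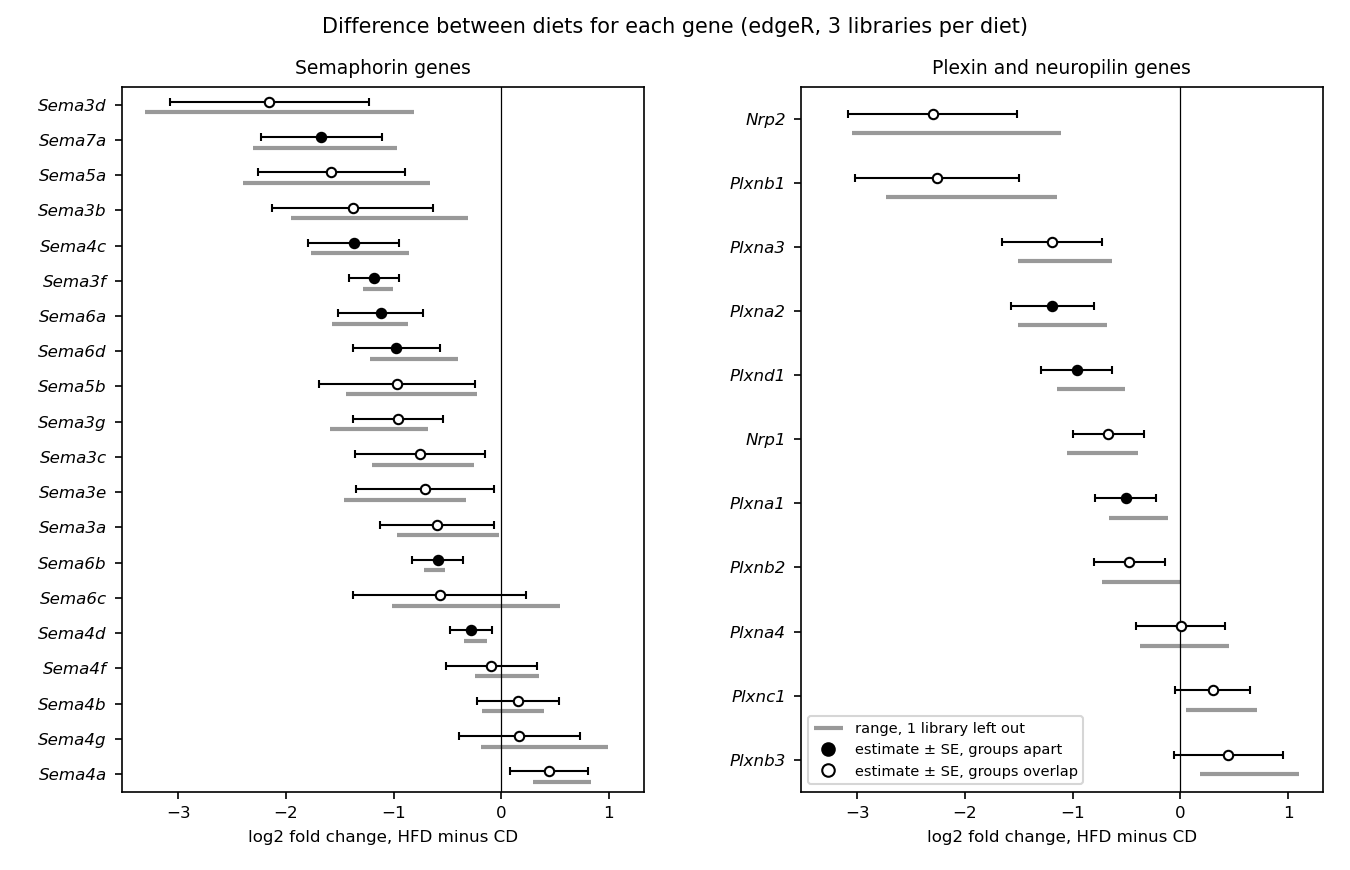
log2 fold change, HFD minus CD, of each semaphorin gene (left panel) and each plexin or neuropilin gene (right panel). Points are edgeR estimates with SE (3 libraries per diet), filled where no HFD library overlaps a CD library, and grey bars give the range of the estimate when 1 library is left out. Sema3f has a short grey bar (-1.29 to -1.0), Nrp2 a long one (-3.05 to -1.11).

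Sema7a encodes a membrane-anchored semaphorin that acts on integrin beta-1 and on Plxnc1 and is found on lymphoid, myeloid and bone cells (chr9:57940112-57962865, + strand; GRCm38 for all positions). It stood at 22.2, 24.5 and 62.1 CPM in HFD 2, HFD 3 and HFD 4, against 68.3, 80.5 and 198 CPM in CD 1, CD 2 and CD 4. The groups were apart, though HFD 4 and CD 1 lay close together and CD 4 far above the rest. The log2 fold change was -1.67 ± 0.56 (edgeR, unadjusted p = 0.0195, adjusted p = 0.466), and it was -0.97 without CD 4 and -2.30 without HFD 4.

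The 7 class 3 genes, which encode the secreted semaphorins, all had lower means under HFD, with a median log2 fold change of -0.96. Sema3f, whose product acts through Nrp2 and is known to repel axons and vessels, had the smallest edgeR p of the 31 genes (chr9:107681500-107710475, - strand). It stood at 6.79, 6.73 and 8.33 CPM in the HFD libraries and at 14.1, 16.4 and 18.9 CPM in the CD libraries. The means were 7.28 ± 0.904 CPM under HFD and 16.5 ± 2.40 CPM under CD (SD, n = 3 each), so the gap between the means exceeded the spread within either diet. Its log2 fold change was -1.18 ± 0.23 (edgeR, unadjusted p = 0.00128, adjusted p = 0.466), -1.0 without CD 4, and -1.15 with an adjusted p of 0.0194 in DESeq2. Sema3f and Sema6a were the 2 genes apart also on FPKM as deposited, where 4.17% of all tested genes were apart with HFD lower. Every other one of the 31 genes that was apart in CPM overlapped on FPKM.

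Sema3g, a class 3 semaphorin known from endothelial cells, stood at 11.7, 14.3 and 34.3 CPM under HFD and 38.9, 33.1 and 45.2 CPM under CD (chr14:31217860-31230352, + strand). HFD 4 lay with the CD libraries, and the log2 fold change was -0.96 ± 0.42 (edgeR, adjusted p = 0.521), or -1.59 without HFD 4. The endothelial marker list had the same order of libraries (385, 463 and 692 CPM under HFD, 842, 658 and 898 CPM under CD), an order shared by 0.56% of all tested genes. The part of endothelial content in the Sema3g values was not tested. Sema3d (mean 0.934 FPKM over the 6 libraries) and Sema3b (2.96 FPKM) had wide spreads. Sema3d stood at 1.73, 1.41 and 7.37 CPM under HFD and at 4.57, 8.30 and 33.7 CPM under CD (-2.15 ± 0.92, and -0.81 without CD 4). Sema3b stood at 9.33, 3.03 and 15.2 CPM under HFD and at 9.17, 14.7 and 47.8 CPM under CD (-1.38 ± 0.75, and -0.30 without CD 4). In both the CD 4 library carried the high CD mean. Sema3b and Sema3f lie on chromosome 9 with 72.3 kb between them. The other class 3 genes, Sema3a, Sema3c and Sema3e, overlapped between diets. Sema3a, the ligand of Nrp1 named above for bone mass, stood at 2.57, 5.34 and 4.97 CPM under HFD and 2.72, 6.31 and 10.4 CPM under CD (-0.60 ± 0.53, and -0.02 without CD 4).

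Class 4, membrane-bound semaphorins with roles in immune cells as well as in guidance, was split, with 3 of 6 genes lower under HFD and a median log2 fold change of 0.03. Sema4c, which acts through Plxnb2, stood at 8.43, 6.57 and 14.7 CPM under HFD and at 19.0, 18.6 and 39.1 CPM under CD (chr1:36548639-36558349, - strand). The groups were apart, with a log2 fold change of -1.37 ± 0.42 (edgeR, unadjusted p = 0.0133, adjusted p = 0.466), or -0.86 without CD 4. Sema4d, the osteoclast-derived ligand of Plxnb1 and of Cd72 on B cells, had the narrowest range of all 31 genes. It stood at 67.2, 69.8 and 69.6 CPM under HFD and 81.7, 76.1 and 93.2 CPM under CD (chr13:51685529-51793673, - strand). The groups were apart by a small step (68.9 ± 1.43 CPM under HFD, 83.6 ± 8.73 CPM under CD, SD, n = 3 each), and the log2 fold change was -0.28 ± 0.20 (edgeR, adjusted p = 0.678), or -0.13 without CD 4. On the FPKM scale its direction was lost (0.00 in limma).

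Sema4a, a ligand on antigen-presenting cells, was the most abundant gene with a higher mean under HFD, at 77.1, 78.1 and 44.2 CPM under HFD and 40.6, 71.8 and 33.9 CPM under CD (chr3:88435959-88461182, - strand). HFD 4 lay within the CD range, and the log2 fold change was 0.45 ± 0.36 (edgeR, adjusted p = 0.712). Monocyte and macrophage markers, summed over 15 genes, stood at 3122, 3299 and 1801 CPM under HFD and 1438, 2770 and 1472 CPM under CD, with the same 3 libraries on top as for Sema4a. Their part in the Sema4a values was not tested. Sema4b, Sema4f and Sema4g overlapped, with log2 fold changes of 0.16 ± 0.38, -0.09 ± 0.42 and 0.17 ± 0.56. Each of these turned sign with 1 library left out, Sema4b to -0.18 without HFD 3 and -0.12 without CD 1, Sema4f to 0.35 without CD 2, and Sema4g to -0.18 without HFD 4, -0.15 without CD 1 and -0.05 without CD 2, so the split of the class by sign is not firm.

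All 4 class 6 genes, whose transmembrane products signal through A-type plexins, had lower means under HFD, with a median of -0.78. Sema6d, the ligand of Plxna1 on osteoclast precursors and dendritic cells, stood at 19.1, 28.6 and 34.4 CPM under HFD and at 34.6, 40.6 and 86.4 CPM under CD (chr2:124089969-124667769, + strand). The groups were apart only just, HFD 4 and CD 1 being nearly equal, with a log2 fold change of -0.98 ± 0.40 (edgeR, adjusted p = 0.509), or -0.40 without CD 4. On FPKM they overlapped, with CD 1 (1.84) below HFD 2, HFD 3 and HFD 4 (1.99, 3.02 and 2.39). Sema6b stood at 7.34, 9.24 and 7.23 CPM under HFD and at 12.3, 13.1 and 10.5 CPM under CD (chr17:56123085-56140343, - strand). Its libraries lay close together within each diet, and its log2 fold change of -0.59 ± 0.24 (edgeR, adjusted p = 0.492) stayed between -0.71 and -0.52 when any 1 library was left out. Sema6a stood at 4.58, 3.33 and 8.31 CPM under HFD and at 13.8, 8.72 and 12.6 CPM under CD (chr18:47235598-47368870, - strand), apart with HFD lower and at -1.12 ± 0.39 (edgeR, adjusted p = 0.472). Sema6c overlapped, at 32.7, 5.13 and 26.4 CPM under HFD and 65.7, 12.8 and 17.1 CPM under CD. Its log2 fold change of -0.57 ± 0.80 turned to 0.55 without CD 1 and to 0.99 with the replicate number as a block. Its highest library (CD 1) and its lowest (HFD 3) were also those of the skeletal muscle markers. Sema6a, Sema3c and Sema3e had the same highest and lowest libraries, and the share of all tested genes with them was not counted. The part of muscle in the values of these genes was not tested.

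Both class 5 genes had lower means under HFD. Sema5a, a transmembrane semaphorin that can act through Plxnb3, stood at 6.19, 8.87 and 24.9 CPM under HFD and 20.6, 23.6 and 75.2 CPM under CD. HFD 4 lay above CD 1 and CD 2, and the log2 fold change of -1.58 ± 0.68 was -0.66 without CD 4 and -2.40 without HFD 4. Sema5b was near the lower end of detection, with 12 to 37 counts per library.

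Nrp2, the receptor of Sema3f and of the lymphatic growth factor Vegfc, had the highest CPM of any of the 31 genes in a single library. It stood at 33.7, 35.7 and 106 CPM under HFD and at 95.6, 169 and 597 CPM under CD (chr1:62703285-62818695, + strand). HFD 4 lay above CD 1, so the groups overlapped, and the libraries spanned a 17.7-fold range. The log2 fold change was -2.30 ± 0.78 (edgeR, unadjusted p = 0.0208, adjusted p = 0.466), -1.11 without CD 4 and -3.05 without HFD 4. Nrp1, the receptor of Sema3a and of Vegfa, stood at 16.4, 13.8 and 28.8 CPM under HFD and 27.8, 26.2 and 39.6 CPM under CD, with overlap and a log2 fold change of -0.67 ± 0.33.

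The A-type plexins, partners of neuropilins and direct receptors of class 6, gave 2 genes with groups apart in CPM. Plxna2 stood at 15.7, 15.3 and 26.8 CPM under HFD and at 32.3, 32.1 and 67.1 CPM under CD (chr1:194618218-194816869, + strand). Its log2 fold change was -1.19 ± 0.38 (edgeR, unadjusted p = 0.0164, adjusted p = 0.466), or -0.68 without CD 4. Plxna1 stood at 18.1, 21.3 and 19.0 CPM under HFD and at 22.3, 21.6 and 39.2 CPM under CD (chr6:89316314-89362620, - strand). The diets were separated there by the small step between HFD 3 and CD 2, and the log2 fold change of -0.51 ± 0.28 (edgeR, adjusted p = 0.595) was -0.11 without CD 4. On FPKM the diets overlapped, with CD 1 (1.38) below HFD 2, HFD 3 and HFD 4 (2.20, 2.62 and 1.54). Plxna3 had a log2 fold change of -1.19 ± 0.46 with overlap, and Plxna4 one of 0.00 ± 0.41.

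Among the other plexins, Plxnd1, the direct receptor of Sema3e that is known from vessel patterning, stood at 53.2, 64.2 and 74.6 CPM under HFD and at 91.9, 98.5 and 184 CPM under CD (chr6:115954811-115995005, - strand). The groups were apart in CPM, and the log2 fold change was -0.96 ± 0.33 (edgeR, unadjusted p = 0.021, adjusted p = 0.466), or -0.51 without CD 4. On FPKM the groups overlapped, with CD 1 (7.07) below HFD 2, HFD 3 and HFD 4 (8.03, 9.79 and 7.50). Plxnb1, the osteoblast receptor of Sema4d, stood at 3.85, 3.17 and 7.53 CPM under HFD and at 5.21, 17.2 and 47.2 CPM under CD (chr9:109095389-109119917, + strand). HFD 4 lay above CD 1, and the log2 fold change of -2.26 ± 0.76 was -1.15 without CD 4. Plxnb2, a broadly expressed receptor of class 4 semaphorins, stood at 48.6, 51.9 and 46.9 CPM under HFD and 42.3, 60.4 and 102 CPM under CD (chr15:89155549-89180788, - strand). The HFD libraries lay within the CD range, and the log2 fold change of -0.48 ± 0.33 was -0.01 without CD 4. Plxnc1, the plexin that binds Sema7a, had a higher mean under HFD, at 23.1, 38.6 and 26.7 CPM under HFD and 18.1, 35.9 and 17.8 CPM under CD (chr10:94790866-94944835, - strand; 0.30 ± 0.35, edgeR, adjusted p = 0.803). Plxnb3 was low, at 1.64 to 2.54 CPM under HFD and 0.889 to 2.43 CPM under CD (0.44 ± 0.51).

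Ligands and their receptors are set side by side here. For Sema7a (-1.67) the plexin partner Plxnc1 had a value near 0 for its spread (0.30 ± 0.35, 0.06 without HFD 3 and -0.03 with the replicate block) and the integrin partner Itgb1 stood at 205, 243 and 267 CPM under HFD and 280, 273 and 358 CPM under CD (-0.35 ± 0.27). Sema4d (-0.28) varied little while Plxnb1 (-2.26) spanned a 14.9-fold range over the libraries. Sema3f (-1.18) and Nrp2 (-2.30) both had lower means under HFD, with groups apart for the ligand and overlapping for the receptor. Sema6d (-0.98) and Plxna1 (-0.51) were both apart in CPM with HFD lower, though not on FPKM. The co-receptor Trem2 and its adaptor Tyrobp, both of myeloid cells, had log2 fold changes of 0.76 ± 0.44 and 0.65 ± 0.43 with overlap. Sema4c (-1.37) was apart and Plxnb2 (-0.48) overlapped. None of these differences between partners was tested.

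The order of the libraries was in part that of the cell type markers. CD 4 was the highest library for 20 of the 31 genes (64.5%), beside 23.5% of all tested genes, and an HFD library was the lowest for 24 (77.4%), beside 48.6%. Plxna3, Plxnb1 and Sema3d ran in exactly the same order over the 6 libraries as the summed osteoblast markers (3296, 1576 and 7708 CPM under HFD, 6700, 18525 and 75625 CPM under CD), an order shared by 0.807% of all tested genes. Plxna2 and Sema4c ran in the order of 12 fibroblast matrix markers (1211, 466 and 2425 CPM under HFD, 3464, 3107 and 4388 CPM under CD), an order shared by 1.59% of all tested genes, and 12 of those 12 markers had lower means under HFD. Osteoclast markers summed to 945, 1326 and 1148 CPM under HFD and to 1557, 1923 and 7064 CPM under CD, with 11 of 13 lower and 9 apart. That order was shared by 0 of the 31 genes and by 0.348% of all tested genes. B cell markers were on the other side, at 435, 712 and 449 CPM under HFD and 116, 393 and 150 CPM under CD, with 11 of 12 higher. These likenesses were looked for after the values had been seen, and the part of cell content in the diet values was not tested.

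**Figure D3:**
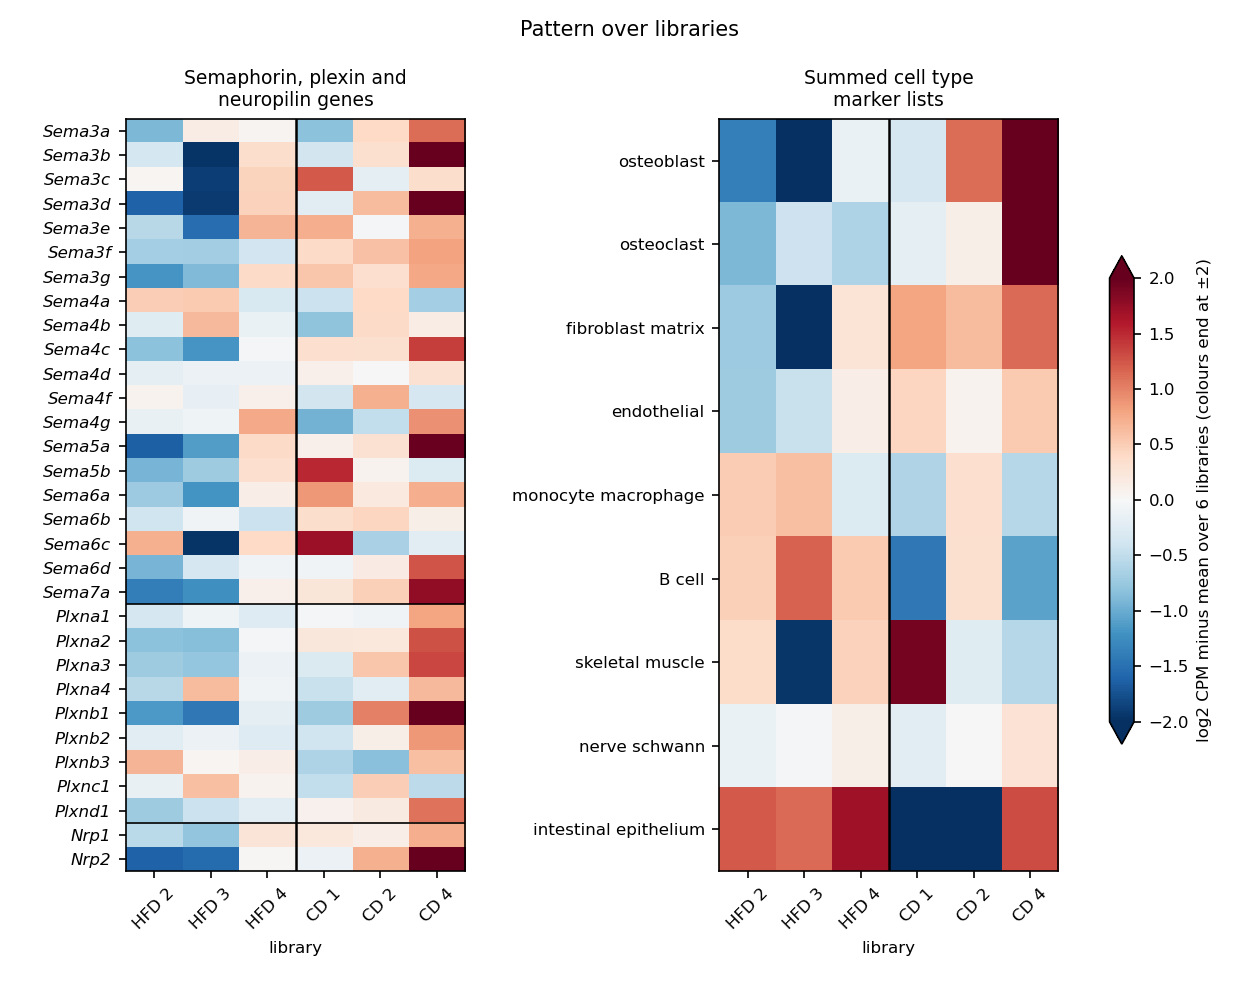
log2 CPM minus the mean of the 6 libraries for each semaphorin, plexin and neuropilin gene (left panel) and for the summed CPM of each cell type marker list (right panel). Columns are libraries, HFD left of the vertical line and CD right of it, and colours end at 2 log2 units either way. CD 4 is the darkest red column for 20 of the 31 genes. It is also the darkest red column for the osteoblast, osteoclast, fibroblast matrix, endothelial and nerve lists.

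A list of 69 co-receptors, competing ligands and cytosolic effectors of these receptors, written from general knowledge of the pathway, had lower means under HFD for 47 genes (68.1%, beside 52.5% of all tested genes) and higher means for 22, with a median log2 fold change of -0.26. edgeR called 0 of the 69, the groups were apart with HFD lower for 19 and with HFD higher for 2 (10.2% and 4.97% of all tested genes), and DESeq2 called 3 lower (Pak1, Mical2 and Farp2) and 1 higher (Cd72), beside 1.11% and 0.535% of all genes. On FPKM as deposited, 5 of the 69 were apart with HFD lower and 0 with HFD higher, beside 4.17% and 4.05% of all tested genes. Farp2 stood at 4.07, 1.18 and 6.73 CPM under HFD and at 7.22, 11.4 and 65.2 CPM under CD (DESeq2 adjusted p = 0.0444). Its CD 4 library lay far above the rest, and on FPKM its groups overlapped. By role, the median was -0.54 for 19 co-receptors and alternative receptors, -0.26 for 5 competing ligands and -0.13 for 45 cytosolic effectors. Pak1, a kinase that relays Rac signals to the actin skeleton, had the smallest edgeR p of the list, at 23.1, 23.7 and 32.3 CPM under HFD and 56.0, 57.2 and 64.3 CPM under CD (-1.17 ± 0.22, DESeq2 adjusted p = 0.0164). The means of 26.4 ± 5.11 CPM under HFD and 59.2 ± 4.46 CPM under CD (SD, n = 3 each) lay further apart than the spread within either diet.

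Mical2, of the MICAL family of actin-oxidising enzymes that act below plexins, stood at 14.4, 5.89 and 14.9 CPM under HFD and at 66.9, 28.2 and 48.5 CPM under CD (-2.03 ± 0.46, DESeq2 adjusted p = 0.0123). Its highest library (CD 1) and its lowest (HFD 3) were also those of the skeletal muscle markers, while the libraries between ran in another order. Flt1, Gsk3b and Rras of the pathway list had the same highest and lowest libraries. The part of muscle in the Mical2 values was not tested. Rnd3, a GTPase of the Rnd family that binds plexins, stood at 18.9, 17.9 and 20.9 CPM under HFD and at 29.3, 37.5 and 53.3 CPM under CD (-1.06 ± 0.26). Dpysl3, a collapsin response mediator, stood at 24.4, 23.1 and 48.4 CPM under HFD and at 70.0, 71.6 and 133 CPM under CD (-1.52 ± 0.40). Arhgef11, the RhoA exchange factor bound by B-type plexins, was also apart in CPM with HFD lower, at 19.7, 15.8 and 21.6 CPM under HFD and 31.0, 29.8 and 43.2 CPM under CD (-0.87 ± 0.24). On FPKM the groups of Rnd3 and of Arhgef11 overlapped, with CD 1 (3.72 and 2.19 FPKM) below HFD 2 (4.69 and 2.73 FPKM). Cd72, the B cell receptor of Sema4d, lay on the other side, at 135, 81.7 and 47.0 CPM under HFD and 14.9, 36.6 and 19.0 CPM under CD (1.9 ± 0.49, DESeq2 adjusted p = 0.0158), and its libraries did not overlap on this scale, whereas on FPKM HFD 4 (10.1 FPKM) lay below CD 2 (11.6 FPKM). In TMM-scaled CPM the B cell markers also summed higher in every HFD library than in any CD library. As a percentage of all counts, HFD 4 (0.0372%) lay below CD 2 (0.0486%). Within HFD the order of these markers differed from that of Cd72, at 435, 712 and 449 CPM in HFD 2, HFD 3 and HFD 4. Their part in the Cd72 values was not tested. Of the vascular genes that share neuropilins, Vegfa (-1.10 ± 0.47), Flt1 (-1.24 ± 0.47) and Kdr (-0.78 ± 0.36) had lower means under HFD with overlapping groups in CPM. On FPKM as deposited, Flt1 and Kdr were apart with HFD lower, while Vegfa still overlapped. The other competing ligands overlapped on both scales: Pgf (-1.81 ± 0.65), Vegfb (-0.26 ± 0.62), Vegfc (-0.25 ± 0.28) and Vegfd (-0.19 ± 0.51). So did the receptor gene Flt4 (-0.48 ± 0.41).

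**Figure D4:**
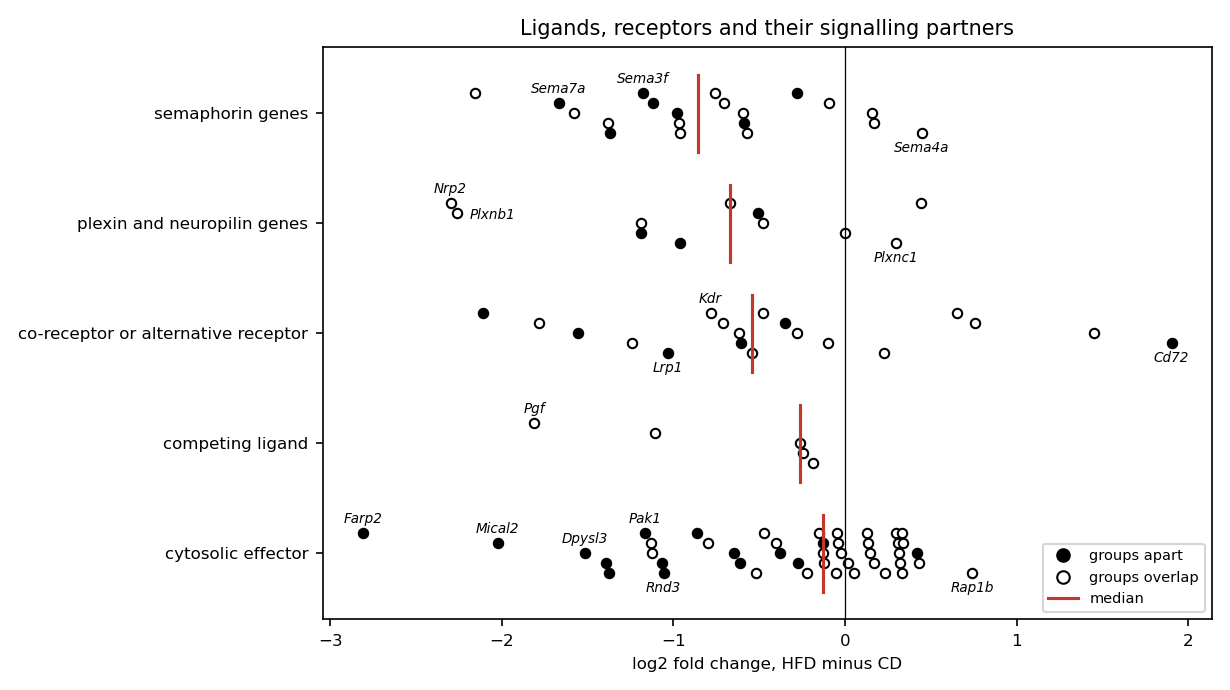
log2 fold change, HFD minus CD, of the ligand genes, the receptor genes and the 3 roles of the pathway list, from edgeR. Each circle is a gene, filled where the HFD and CD libraries did not overlap, and red lines are medians (-0.86 for semaphorin genes, -0.67 for plexin and neuropilin genes, -0.54, -0.26 and -0.13 for the pathway roles). Cd72 is the filled circle furthest to the right.

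All 31 genes were found in GENCODE M21, with spans of 9.7 to 577.8 kb. Another annotated gene overlaps 18 of them, 12 on the other strand and 10 on the same strand. The sources used here leave unclear if strand was used in counting, so reads from a gene and an overlapping partner may not be told apart.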

How the data were processed

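Cortical bone mRNA was sequenced in 6 libraries, 3 per diet. The authors deposited 1 table that pairs, for every gene, its counts with its FPKM. Their notes to the archive list StringTie 1.3.4d, HISAT2 2.0.4, cutadapt 1.9 and UMI-tools, whereas the study's methods name STAR and featureCounts, and it stays unclear which of them made the counts. The deposited FPKM were within 1% of the count times a factor per gene and a factor per library for 98.8% of values of 12388 well-counted genes, so both units hold 1 measurement.

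Groups were taken from the labels. Counts were tested with edgeR 4.0.16 in R 4.3.3, by the quasi-likelihood test on diet alone after TMM scaling. Genes had to pass filterByExpr at a count minimum of 10, and p-values were adjusted by Benjamini-Hochberg over 19831 genes, with calls made under 0.05. The scripts were tested on simulated data. Alternatives were DESeq2 1.42.0, limma 3.58.1 (trended prior) on log2(FPKM + 1) or log2(FPKM + 0.1) for genes at 0.5 FPKM in 3 libraries, other scalings, no filter, omission of mitochondrial genes, a replicate block and each library left out.

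The family and all lists were chosen with earlier results of these data known. Genes given in every library were those with a mean of at least 1 FPKM in a group and groups apart, the 4 ligand and 4 receptor genes of highest mean FPKM, and, from the pathway list, Pak1 and the 6 genes of smallest edgeR p at that level, which included it. Other genes were given in every library after their values had been seen, for their known partners or their spread. Promoter windows and GENCODE M21 positions are of GRCm38.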

Additional observations from a re-analysis of the deposited data

How the results depend on the processing

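The lower medians under HFD kept their direction under every alternative run. With any 1 library left out the median log2 fold change was -1.25 to -0.64 over the ligand genes and -1.05 to -0.39 over the receptor genes, the number of genes apart with HFD lower was 8 (without CD 4) to 19 (without HFD 4), where 10 were apart with all libraries, and the number apart with HFD higher was 0 to 3 (without CD 2, beside 17.3% of all tested genes). The number apart with HFD lower was 2 on FPKM with either pseudocount and 3 with library totals alone, beside 4.17% and 4.26% of all tested genes. CD 4 alone against HFD gave 23 lower and 3 higher, where 1 library against 3 also set 32.5% and 31.6% of all tested genes apart, and medians of -1.03 for ligand genes and -1.05 for receptor genes. DESeq2 called 1 gene, Sema3f (-1.15, adjusted p = 0.0194), and edgeR called 0 of the 31 under each of its settings. The direction of Sema4d reversed in limma on log2(FPKM + 1) (0.00293) and log2(FPKM + 0.1) (0.00559). The median over all genes, -0.03 in the edgeR result, was 0.24 with library totals alone and 0.19 and 0.27 in limma with a pseudocount of 1 and 0.1. Relative to that median, at least 25 of the 31 genes stood lower in each count-based setting and 21 of 24 in limma.

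The replicate numbers 2 and 4 occur in both diets. With the replicate block, which only these 4 libraries inform, edgeR called 0 of the 31 genes, the median was -0.73 for ligand genes and -0.72 for receptor genes, and 5 genes changed sign: Plxnc1 (-0.0283), Sema6c (0.99), Sema3c (0.17), Sema4b (-0.45) and Plxna4 (-0.54). Deviations from the group mean correlated across genes at -0.28 for HFD 2 with CD 2 and 0.26 for HFD 4 with CD 4, and at -0.17 for HFD 2 with CD 4 and -0.56 for HFD 4 with CD 2. The labels name no shared source and 2 pairs are too few to settle it, so the numbers were not taken to pair the samples. The cause of these shifts was not tested. Counts as low as 12 in a library limit what can be said of Sema5b.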

Other observations

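Sema4g, a class 4 semaphorin, was lowest in the 2 libraries with few intestinal markers. It stood at 2.5, 2.61 and 4.69 CPM in HFD 2, HFD 3 and HFD 4, against 1.45, 1.98 and 5.27 CPM in CD 1, CD 2 and CD 4. Muc2, the secreted intestinal mucin, stood at 34.0, 32.8 and 48.7 CPM in the same HFD libraries, against 0.102, 0.160 and 36.7 CPM in the CD libraries. Plxnb3 was likewise lowest in CD 1 and CD 2, at 1.04 and 0.889 CPM, with 1.64 to 2.54 CPM in the other libraries. The share of all tested genes that were lowest in these 2 libraries was not counted. The part of intestinal RNA in the Sema4g and Plxnb3 values was not tested.

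The 31 genes together took 0.0683, 0.0732 and 0.0631% of all counts in HFD 2, HFD 3 and HFD 4, against 0.0528, 0.118 and 0.179% in CD 1, CD 2 and CD 4. On this scale CD 1 was the lowest library, while on TMM-scaled CPM the sums were 541, 573 and 762 under HFD and 825, 950 and 1898 under CD, with CD 1 above all 3 HFD libraries. CD 1 had the smallest TMM factor, 0.640. Mitochondrially encoded genes took 15.5, 15.6 and 38.6% of counts in HFD 2, HFD 3 and HFD 4, against 37.9, 15.3 and 28.1% in CD 1, CD 2 and CD 4.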
